A study of Homo sapiens with 34 samples.

Results

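VCaP and LNCaP, 2 human prostate cancer cell lines, were compared on tissue culture plastic in the control medium of each line. The comparison used 4 of the 34 libraries of the series, 2 of VCaP and 2 of LNCaP, chosen by their labels alone. VCaP is labelled as bone metastatic. LNCaP is labelled as coming from a lymph node metastasis, and the study's design takes it as a model of early adenocarcinoma. LNCaP was grown in RPMI medium and VCaP in a mixture of DMEM and F12, each with fetal bovine serum, so the line and its basal medium cannot be told apart. The plastic cultures are labelled as continuous culture and carry no day, no added agent and no engineered allele in their labels. Each site of origin is represented by 1 line, so a difference between these lines cannot be told apart from a difference between stages. The same lines were also grown for 4 days on ACP, a surface covered with amorphous calcium phosphate, which imitates bone mineral, in control medium, in serum stripped of steroid hormones, or in stripped serum with androgen, with 2 libraries per line and medium. Those 12 libraries share no sample with the plastic comparison.

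Both lines are luminal, androgen-responsive prostate carcinoma lines that differ in known lesions. VCaP carries the fusion that places the ETS transcription factor ERG behind the androgen-regulated promoter of TMPRSS2, the founding lesion of a large class of prostate tumours. LNCaP carries a rearrangement of another ETS gene, ETV1. Prostate carcinomas also differ in how far they keep the secretory programme of luminal cells and in how far they take on traits of neuroendocrine cells, which store peptides in dense granules.

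The 4 libraries held 44.8 M and 42.5 M counts in LNCaP and 35.5 M and 42.3 M counts in VCaP. Levels are given as CPM, the reads of a gene scaled to a library of fixed size with a correction for composition, and since CPM is not divided by transcript length, no levels of different genes are compared. Where a gene is given with 2 pairs of values, they are LNCaP replicates 1 and 2 and then VCaP replicates 1 and 2. Nothing in the labels says that replicates came from separate cultures, so p-values measure a spread between libraries that may be technical. That spread was estimated within the groups of all 34 libraries of the series, not from these 4 alone. The LNCaP replicates lay close together, with Pearson's r of 0.998 and 5 of 17323 genes at least 2-fold apart, whereas the VCaP replicates had r of 0.985 and 691 such genes (log2 of CPM + 1, across genes, which are not independent replicates). The luminal markers were read in all 4 libraries. KRT8, a luminal keratin, was at 506 and 463 CPM in LNCaP and 485 and 373 CPM in VCaP, and HOXB13, the homeobox factor of prostate epithelium, at 763 and 717 CPM and 1061 and 657 CPM. Neither passed the test between lines (adjusted p 0.523 and 0.498, edgeR). Markers of other cell types were read at low but unequal levels. The 16 leukocyte markers summed to 19.8 and 19 CPM in LNCaP and 9.04 and 15.9 CPM in VCaP, mostly from CD74 and CD68, with PTPRC at 0.12 to 0.18 CPM and no read of CD3E or TYROBP. The 12 fibroblast markers summed to 28.5 and 22.6 CPM in LNCaP and 19.3 and 47.3 CPM in VCaP, led by COL1A1 in LNCaP and, in VCaP, by LUM at 7.26 and 33.8 CPM, with DCN at 0.09 to 0.19 CPM and no read of THY1. The 13 keratinocyte markers summed to 61.1 and 64.2 CPM in LNCaP and 71.9 and 109 CPM in VCaP, led by KRT10 in LNCaP and, in VCaP, by DSC3 at 36.2 and 74.0 CPM, with no read of SPRR1B. VCaP replicate 2 thus had the highest fibroblast and keratinocyte sums, and TP63 of basal cells was at 0.07 to 0.31 CPM over the 4 libraries. The liver transcript FGG was at 2.43 and 2.52 CPM in LNCaP and 2.42 and 2.84 CPM in VCaP, about as high in one line as in the other, and had no read in either line on ACP in control medium. The summed level of 16 liver genes was 49.1 and 41.5 CPM in LNCaP and 98.8 and 212 CPM in VCaP, and the part of these marker sums in the results below was not tested. In such bulk samples, fewer cells expressing a gene and less RNA of it per cell cannot be told apart.

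Of 17323 genes tested, 9120 (52.6%) differed between the lines at a Benjamini-Hochberg adjusted p below 0.05 in edgeR's quasi-likelihood test, 4670 (27.0%) higher in VCaP and 4450 (25.7%) higher in LNCaP. The median log2 difference, VCaP minus LNCaP, was 0.03, and 6353 of the differences were at least 2-fold. Differences of at least 5 on the log2 scale were less evenly split, with 799 genes higher in VCaP and 275 higher in LNCaP. In 78.8% of the tested genes the 2 libraries of one line lay on one side of both libraries of the other. Such separation is thus usual between these lines, and a list of genes is read below against these shares. Of the 1074 called differences of at least 5 on the log2 scale, 626 had their lower line under 0.5% of the highest group mean in any line. At that level reads carried over between libraries could make up the lower value, which was not tested, so the size of those differences is uncertain.

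**Figure D1:**
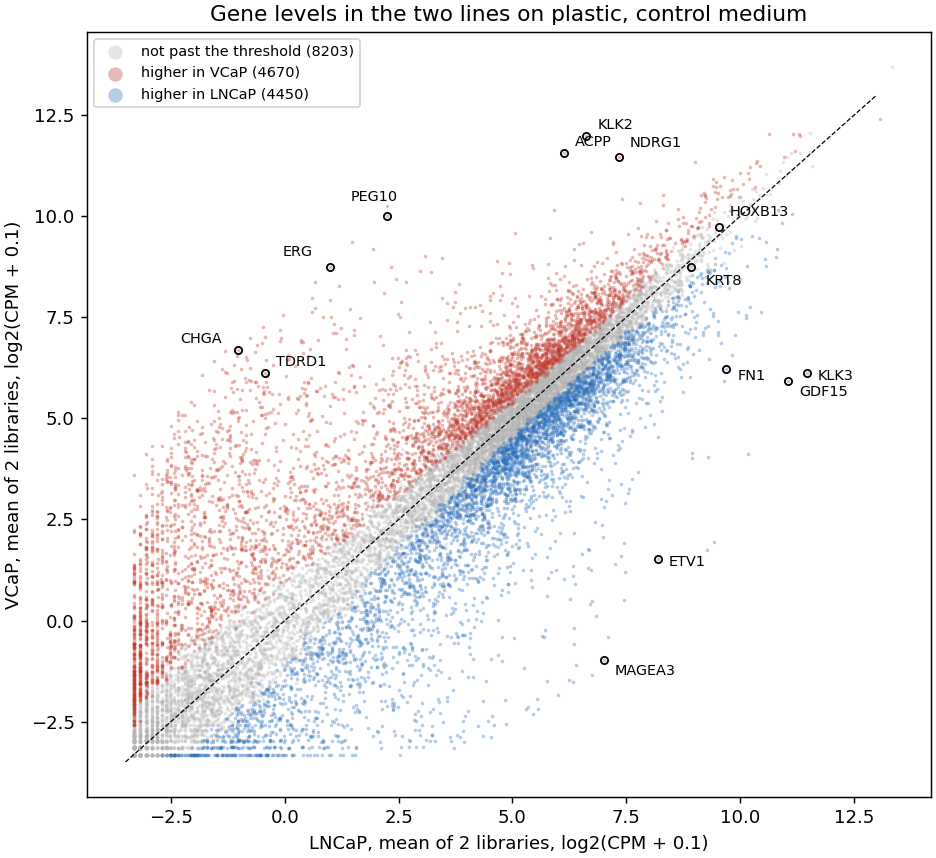
Mean level of each tested gene in LNCaP (x axis) and VCaP (y axis), both as log2(CPM + 0.1) over 2 libraries; the dashed line marks equal levels and the circled genes are named in the text. Genes higher in VCaP (4670, red) and higher in LNCaP (4450, blue) lie off the line on both sides, with KLK2, ACPP, PEG10 and ERG far above it and KLK3, GDF15, ETV1 and MAGEA3 far below it.

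The genes with the largest differences towards VCaP, among those whose higher line averaged 20 CPM or more and whose libraries did not overlap, were 14 genes of mixed roles. CHGB, a chromogranin of dense-core granules, was at 0.148 and 0.221 CPM in LNCaP and 62.2 and 73.3 CPM in VCaP, a log2 difference of 8.49 ± 0.49 (standard error, adjusted p 5.89e-13). CTNND2, a catenin of neuronal junctions, was at 0.169 and 0.309 CPM and 69.0 and 103 CPM (log2 8.47). Next came ME3, a mitochondrial malic enzyme, GREM1, a secreted antagonist of bone morphogenetic proteins, ADCY2, an adenylyl cyclase, RIMBP2, a presynaptic scaffold, and SCGN, a calcium sensor of endocrine cells, with log2 differences of 8.46, 8.46, 8.42, 8.39 and 8.37. All 5 were under 0.4 CPM in both LNCaP libraries. FAM127C, one of a set of near-identical retrotransposon-derived genes whose reads may be shared, had a log2 difference of 8.26. SHH, the Sonic hedgehog ligand, was at 0.0423 and 0.177 CPM in LNCaP but at 9.39 and 58.7 CPM in VCaP. The VCaP replicates differed widely from each other, with a log2 difference of 8.24 ± 0.91. The rest were GRIP2, a synaptic scaffold (log2 8.18), INSM1, a transcription factor of neuroendocrine cells (8.10), BRINP1, a gene of neurons (8.07), ITM2A, a membrane protein (8.05), and CHGA, the chromogranin used to diagnose neuroendocrine tumours (8.02). ITM2A was at 3.08 and 6.14 CPM in LNCaP and 1064 and 1379 CPM in VCaP, and CHGA at 0.232 and 0.552 CPM and 139 and 65.7 CPM, with the VCaP libraries far above those of LNCaP for both. Over the fits that each leave out 1 library, these log2 differences moved by over 1.5-fold, with the library of the widest move in parentheses here and below: ME3 between 7.69 and 10.10 (LNCaP replicate 2), SHH between 6.38 and 9.51 (VCaP replicate 2) and CHGA between 7.38 and 8.76 (LNCaP replicate 2).

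Towards LNCaP the same rule gave 4 MAGEA genes of the X chromosome, cancer-testis antigens that are silent in most adult tissues. MAGEA3 was at 126 and 132 CPM in LNCaP and 0.350 and 0.458 CPM in VCaP (log2 -8.29 ± 0.45, adjusted p 2.14e-13). MAGEA6 was at 107 and 106 CPM and 0.175 and 0.410 CPM, MAGEA12 at 76.8 and 74.7 CPM and 0.379 and 0.145 CPM, and MAGEA10 at 40.5 and 46.2 CPM and 0.175 and 0.0241 CPM, with log2 differences of -8.45, -8.20 and -8.79. In every case both LNCaP libraries stood far above both VCaP libraries. In RefSeq order the LNCaP-high MAGEA genes stand in a run of 6 neighbours from MAGEA10 to MAGEA6 that also holds MAGEA2 and CSAG1, with a median log2 difference of -8.25 on plastic and -7.78 on ACP in control medium. The promoters of MAGEA3 and MAGEA6, shown here because these genes were high together in LNCaP and because the windows show how alike the copies are, were read from RefSeq (build GRCh38.p14) as the 250 bases before each gene start, MAGEA3 at chrX:152698544-152698793 on the plus strand and MAGEA6 at chrX:152769690-152769939 on the minus strand, with CG pairs in capitals:
MAGEA3: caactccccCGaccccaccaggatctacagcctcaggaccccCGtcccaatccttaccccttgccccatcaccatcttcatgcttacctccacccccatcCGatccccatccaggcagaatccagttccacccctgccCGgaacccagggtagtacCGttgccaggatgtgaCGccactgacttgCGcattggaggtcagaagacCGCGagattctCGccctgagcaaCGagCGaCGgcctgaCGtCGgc
MAGEA6: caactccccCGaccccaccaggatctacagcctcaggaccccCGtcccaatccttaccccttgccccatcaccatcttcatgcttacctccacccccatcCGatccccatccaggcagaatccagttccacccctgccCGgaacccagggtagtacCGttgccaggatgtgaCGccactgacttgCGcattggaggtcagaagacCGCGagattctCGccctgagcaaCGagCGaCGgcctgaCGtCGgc
The 2 windows had 0 mismatches over 250 bases. With copies this alike, the authors' counting could split or misplace reads among MAGEA genes, so single values within the family are uncertain. Each window held 15 CG pairs, against a median of 11 over the windows of 27305 genes, and 42.7% of those windows held at least as many. Methylation was not measured. Without 1 library the log2 difference lay for MAGEA6 between -9.22 and -8.01 (VCaP replicate 2), MAGEA12 between -8.99 and -7.62 (VCaP replicate 1) and MAGEA10 between -10.56 and -7.92 (VCaP replicate 1).

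The other genes of the LNCaP side had no shared theme by name. WDR72 had 2147 reads in LNCaP and 3 in VCaP over both libraries, a ratio of 585 (95% interval 200.1 to 2841, counting error only), and FCAMR, an Fc receptor, had 1884 and 3 reads, a ratio of 514 (176 to 2494). THNSL2, a threonine synthase-like enzyme, MMP16, a membrane-bound matrix metalloproteinase, EFS, an adaptor of Src-family kinases, CSMD1, a large complement regulator, DUSP23 and DUSP27, phosphatase family members, and CLEC7A, the receptor dectin-1, had log2 differences from -8.58 to -8.03. EFS was at 84.0 and 77.1 CPM in LNCaP and 0.379 and 0.120 CPM in VCaP. Leaving out 1 library placed the log2 difference of EFS between -9.33 and -7.71 (VCaP replicate 1) and that of MMP16 between -9.05 and -8.03 (VCaP replicate 2). NUDT16P1 (log2 -8.41) is a pseudogene whose reads may be shared with its parent gene.

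The ETS factors of the known lesions separated the lines in opposite directions. ERG was at 1.44 and 2.32 CPM in LNCaP and 560.0 and 303 CPM in VCaP (log2 7.84 ± 0.53, adjusted p 1.19e-11). ETV1 was at 313 and 276 CPM in LNCaP and 3.06 and 2.46 CPM in VCaP (log2 -6.74 ± 0.35, adjusted p 1.20e-13). Both VCaP libraries were high for ERG and both LNCaP libraries for ETV1. TMPRSS2, the fusion partner, was at 1056 and 1011 CPM and 802 and 435 CPM and did not pass the test on plastic (log2 -0.74 ± 0.43, adjusted p 0.155). Among 22 ETS genes tested, 6 were higher in VCaP, 6 higher in LNCaP and 10 did not pass, with a median of 0.10, a share of calls near that of all genes. Besides ERG these were FEV (log2 3.78), ELF5, ETS2 (1.37, and 0.84 without VCaP replicate 1), SPDEF (1.30), the ETS factor of secretory prostate epithelium, and GABPA (0.91) on the VCaP side. ELF4 (-1.62), ELK4 (-1.0), EHF (-0.68), ETV3 and ELK3 stood beside ETV1 on the LNCaP side.

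All 10 genes of a list known from ERG-positive prostate tumours were higher in VCaP, with a median log2 difference of 3.79, while 27.0% of all genes were higher there. TDRD1, a germ-cell protein that marks ERG-positive tumours, was at 0.592 and 0.684 CPM in LNCaP and 63.4 and 76.0 CPM in VCaP (log2 6.76 ± 0.49, adjusted p 5.28e-11). CRISP3, a secreted cysteine-rich protein, was at 4.50 and 5.41 CPM and 634 and 227 CPM (log2 6.44). ARHGDIB, an inhibitor of small GTPases, was at 0.613 and 0.464 CPM and 79.8 and 39.5 CPM (log2 6.78), NCALD, a calcium sensor, at 0.275 and 0.530 CPM and 37.7 and 50.9 CPM (6.77), and PLA2G7, a secreted phospholipase, at 2.73 and 2.60 CPM and 83.9 and 77.1 CPM (4.91). No LNCaP library reached a VCaP library in any of these. HLA-DMB, KCNS3 and F5 had smaller differences of 2.66, 1.85 and 2.64, and F5 moved to 1.70 without VCaP replicate 1. PLAT, tissue plasminogen activator, was near the limit of detection at 0.423 and 0.154 CPM and 1.93 and 0.578 CPM, and its call was lost without VCaP replicate 1 (log2 0.99, adjusted p 0.317) or LNCaP replicate 2. CACNA1D, a calcium channel at 8.28 and 9.27 CPM and 32.1 and 16.6 CPM, also missed the threshold without VCaP replicate 1 (log2 0.92, adjusted p 0.0757). On ACP in control medium 9 of the 10 were called higher in VCaP, PLAT being the exception (adjusted p 0.737), against 7 in stripped serum and 10 with androgen. Leaving out 1 library placed the log2 difference of CRISP3 between 5.52 and 7.0 (VCaP replicate 1) and ARHGDIB between 6.18 and 7.2 (VCaP replicate 1).

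**Figure D2:**
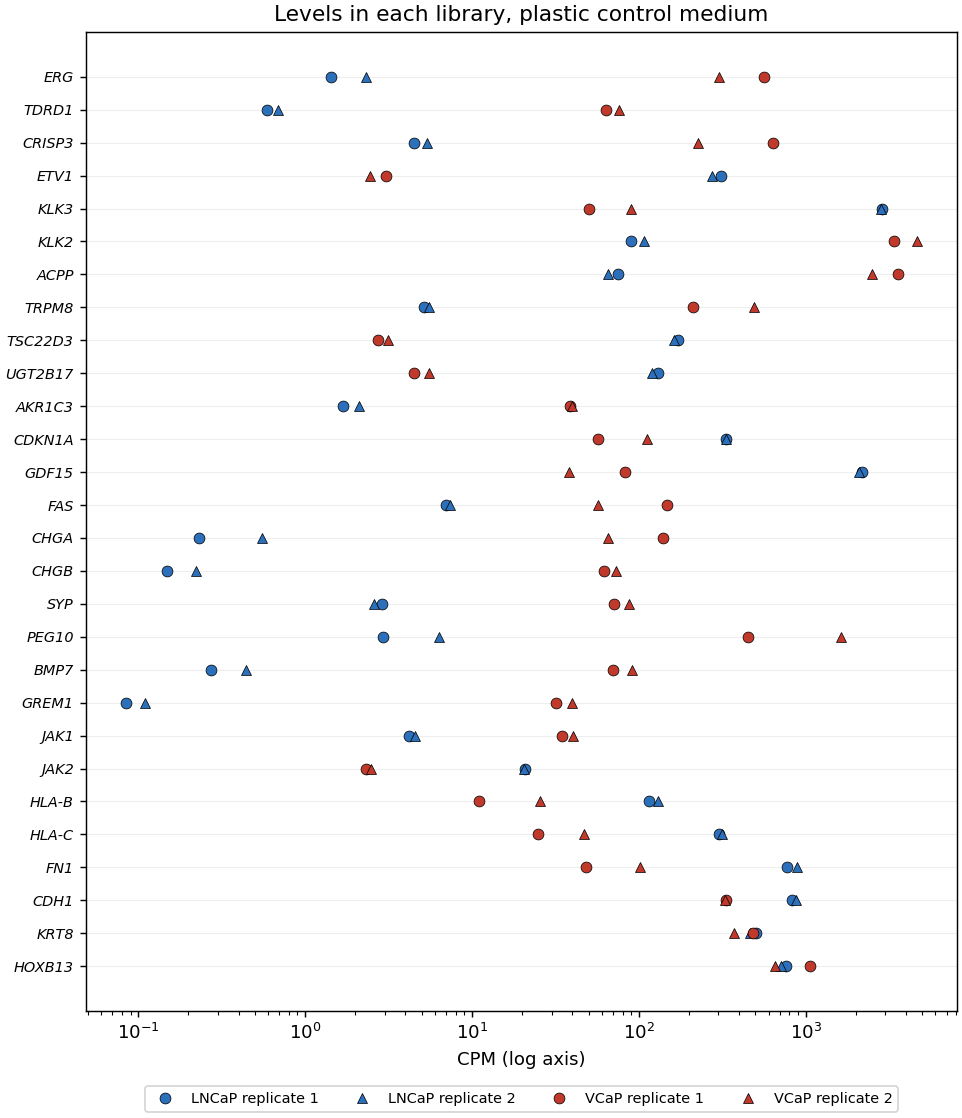
CPM of 28 genes in each of the 4 plastic control libraries, on a log axis; blue stands for LNCaP, red for VCaP, circles for replicate 1 and triangles for replicate 2. ERG, TDRD1, KLK2, ACPP, CHGA and PEG10 are high in both VCaP libraries, ETV1, KLK3, GDF15 and HLA-B in both LNCaP libraries, while KRT8 and HOXB13 overlap.

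Kallikreins of the secretory programme split between the lines. KLK3, which encodes prostate-specific antigen, was at 2862 and 2815 CPM in LNCaP and 50.4 and 89.6 CPM in VCaP (log2 -5.34 ± 0.61, adjusted p 8.85e-08). KLK2, its neighbour and closest relative, was at 90.3 and 107 CPM in LNCaP and 3408 and 4654 CPM in VCaP (log2 5.35 ± 0.79, adjusted p 3.74e-06). Thus LNCaP was high for one and VCaP for the other, with no overlap of libraries. KLK4 was at 204 and 206 CPM and 203 and 195 CPM and did not pass (log2 -0.04, adjusted p 0.944). The KLK3 and KLK2 promoters are shown because these neighbours are alike there and yet differed in opposite directions. The windows are the 250 bases before the gene start in RefSeq (build GRCh38.p14, plus strand), chr19:50854665-50854914 for KLK3 and chr19:50873189-50873438 for KLK2, and the capitals mark a stretch of 15 bases that begins with a hexamer of the androgen response element, AGAACA in KLK3 and GGAACA in KLK2:
KLK3: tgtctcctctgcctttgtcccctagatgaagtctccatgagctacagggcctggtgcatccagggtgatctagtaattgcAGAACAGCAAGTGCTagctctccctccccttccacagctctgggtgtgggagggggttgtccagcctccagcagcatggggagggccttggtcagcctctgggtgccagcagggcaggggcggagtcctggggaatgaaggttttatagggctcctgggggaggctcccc
KLK2: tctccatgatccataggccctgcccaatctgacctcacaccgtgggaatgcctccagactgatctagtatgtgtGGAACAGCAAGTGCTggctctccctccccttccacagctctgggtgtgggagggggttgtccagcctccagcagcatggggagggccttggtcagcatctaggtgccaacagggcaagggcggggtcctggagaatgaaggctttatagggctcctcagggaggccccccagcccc
The stretch reads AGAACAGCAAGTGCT in KLK3, starting 170 bases before the gene start, and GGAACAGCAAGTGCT in KLK2, starting 176 bases before it. They differ by 1 substitution, A1G, counted from the 5′ end of the stretch with the KLK3 base first. Each of these 15-base stretches was found, on either strand, in 1 of the windows of 27305 genes, whereas AGAACA alone stood in 12.4% and GGAACA alone in 11.6% of them. The longest stretch that both windows share is 80 bases. A match describes letters, not binding.

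The wider list of androgen-induced luminal genes did not lean to one line: of 30 tested, 12 were higher in VCaP, 9 higher in LNCaP and 9 did not pass, with a median of 0.07. Calls made up 70% of this list, against 52.6% of all genes. ACPP, prostatic acid phosphatase, was at 74.8 and 65.1 CPM in LNCaP and 3563 and 2485 CPM in VCaP (log2 5.43 ± 0.77, adjusted p 2.34e-06). TRPM8, a cold-gated cation channel, was at 5.13 and 5.56 CPM and 212 and 489 CPM (log2 6.03), NDRG1, a stress and differentiation gene, at 154 and 169 CPM and 3425 and 2202 CPM (4.12), and HPGD, which degrades prostaglandins, at 12.9 and 10.4 CPM and 95.4 and 250.2 CPM (3.89). PMEPA1, a brake on TGF-beta signalling, was higher in VCaP by a log2 of 3.02. For each of these both VCaP libraries lay above both LNCaP libraries. STEAP4, a metalloreductase, was at 0.444 and 0.353 CPM in LNCaP but 0.642 and 21.5 CPM in VCaP: its call (log2 4.79) rested on VCaP replicate 2 and was lost without it (log2 0.68, adjusted p 0.514). On the LNCaP side TSC22D3, a glucocorticoid- and androgen-induced leucine zipper gene, was at 171 and 164 CPM and at 2.74 and 3.13 CPM in VCaP (log2 -5.83 ± 0.35, adjusted p 1.16e-12). SORD, sorbitol dehydrogenase, was at 985 and 917 CPM and 101 and 168 CPM (log2 -2.82), and CENPN, AZGP1 and ALDH1A3 had log2 differences of -2.68, -3.15 and -1.79. FKBP5, a chaperone and standard androgen target, was at 185 and 158 CPM and 184 and 243 CPM and did not pass (log2 0.31, adjusted p 0.363), nor did SLC45A3 (log2 0.58, adjusted p 0.267). The log2 difference without 1 library lay for TRPM8 between 5.31 and 6.51 (VCaP replicate 2) and HPGD between 3.03 and 4.43 (VCaP replicate 2).

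Genes of androgen supply and inactivation also divided. UGT2B17, an enzyme that inactivates androgens by glucuronidation, was at 131 and 119.8 CPM in LNCaP and 4.52 and 5.52 CPM in VCaP (log2 -4.64 ± 0.85, adjusted p 6.31e-05). UGT2B11 followed it (log2 -3.25), and UGT2B28 had 133 reads in LNCaP against 3 in VCaP, a ratio of 36.3 (95% interval 12.1 to 178, counting error only). UGT2B4, UGT2B7 and UGDH, which makes the glucuronic acid donor, were higher in VCaP, by 4.50, 3.85 and 1.31. In all, 3 of 8 genes were higher in VCaP and 4 higher in LNCaP, with 87.5% called against 52.6% of all genes. Since UGT2B genes are alike, reads may be split among them. Of 20 tested genes of steroid synthesis and activation, 3 were higher in VCaP, 6 higher in LNCaP and 11 did not pass (median 0.19, 45% called). AKR1C3, which makes testosterone from androstenedione, was at 1.69 and 2.10 CPM in LNCaP and 39.0 and 39.9 CPM in VCaP (log2 4.38), and HSD17B6 and HSD17B11 were higher there too, by 4.31 and 3.44. The 5-alpha-reductase gene SRD5A1 was at 32.2 and 32.6 CPM in LNCaP and 9.54 and 12.6 CPM in VCaP (log2 -1.55), with SRD5A3 (-2.34) and the sulfotransferase SULT2B1 (-3.36) on the same side. CYP11A1, the side-chain cleavage enzyme, had 531 reads in LNCaP and 1 in VCaP. Among 20 nuclear hormone receptors, 4 were higher in VCaP and 7 in LNCaP, a share called of 55.0%, near the 52.6% of all genes. NR3C1, the glucocorticoid receptor, was at 2.58 and 1.96 CPM in LNCaP and 14 and 8.02 CPM in VCaP (log2 2.27), and NR2F1 and NR2F2, the COUP factors, were higher in VCaP by 3.79 and 1.37. PPARG and VDR, the vitamin D receptor, were higher in LNCaP, with log2 differences of -2.49 and -1.11. Without 1 library the log2 difference lay for UGT2B11 between -3.85 and -2.80 (VCaP replicate 1), UGT2B7 between 3.05 and 4.36 (VCaP replicate 1), NR2F1 between 2.61 and 4.43 (VCaP replicate 1) and PPARG between -3.58 and -1.90 (VCaP replicate 2).

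Some genes of stress, growth arrest and cell death are given as examples, not as a counted group. GDF15, a stress-induced cytokine, was at 2179.8 and 2094 CPM in LNCaP and 82.7 and 38.1 CPM in VCaP (log2 -5.14 ± 0.55, adjusted p 3.03e-08). CDKN1A, the cell-cycle inhibitor p21, was at 334 and 335 CPM and 56.7 and 112 CPM (log2 -1.98 ± 0.31, adjusted p 9.93e-06). PHLDA3, an inhibitor of AKT, was at 85.9 and 67.1 CPM and 1.40 and 1.28 CPM (log2 -5.84), and SPATA18, a mitochondrial quality gene, had 1409 reads in LNCaP and 2 in VCaP, a ratio of 576 (95% interval 159 to 4764). The sestrin SESN2, the death receptor gene TNFRSF10B, ZMAT3 and FDXR were also LNCaP-high, with log2 differences of -3.95, -2.92, -2.39 and -1.67. Yet MDM2, a ubiquitin ligase, was at 103 and 103 CPM and 133 and 112 CPM (adjusted p 0.262), and BAX at 29.8 and 30.3 CPM and 39.6 and 34.7 CPM (adjusted p 0.224), neither past the threshold. FAS, a death receptor, stood on the other side, at 7.01 and 7.35 CPM in LNCaP and 148 and 57.3 CPM in VCaP (log2 3.84). Leaving out 1 library placed the log2 difference of GDF15 between -5.81 and -4.69 (VCaP replicate 1) and FAS between 3.00 and 4.37 (VCaP replicate 1).

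Of 12 mismatch repair genes 4 were higher in VCaP and 3 in LNCaP, the latter 1 without either LNCaP library or by DESeq2. The share called among these repair genes was 58.3%, against 52.6% of all genes. MSH6, which recognises mismatched bases, was at 49.5 and 58.0 CPM and 36.8 and 52.6 CPM and did not pass (adjusted p 0.222). PMS2, which shares sequence with pseudogenes, was higher in LNCaP (log2 -1.58). Of 23 prostate tumour suppressors 5 were higher in VCaP, 4 higher in LNCaP and 14 did not pass, with 2 higher in LNCaP without VCaP replicate 2. Among these suppressors 39.1% were called, against 52.6% of all genes. SMAD4, CHD1 and ATM were higher in VCaP, by 1.24, 1.34 and 0.95. INPP4B, a phosphoinositide phosphatase, was higher in LNCaP with a log2 difference of -1.52, which became -2.34 without VCaP replicate 2.

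Luminal and junction genes lay on both sides. Of 16 luminal lineage genes, 5 were higher in VCaP, 5 in LNCaP and 6 did not pass, with 62.5% called against 52.6% of all genes. CDH1, E-cadherin, was at 833 and 870.4 CPM in LNCaP and 333 and 328 CPM in VCaP (log2 -1.36 ± 0.21, adjusted p 5.97e-06), and CLDN7, a tight junction claudin, at 485 and 467 CPM and 70.8 and 59.1 CPM (log2 -2.87). EPCAM, an epithelial adhesion molecule, went the other way, at 83.4 and 78.1 CPM and 341 and 275 CPM (log2 1.93), with KRT19 (3.07) and GATA2 (1.22). FOXA1, a pioneer factor of luminal chromatin, was at 673 and 599.8 CPM and 1188 and 912 CPM (log2 0.72, adjusted p 0.00472), which missed the threshold without VCaP replicate 1 or LNCaP replicate 2 (highest adjusted p 0.0803). KRT18, the partner of KRT8, was at 479 and 459 CPM and 336 and 289.6 CPM (log2 -0.58, adjusted p 0.0174), and missed it without VCaP replicate 2 or LNCaP replicate 1 (highest adjusted p 0.127).

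Basal and mesenchymal markers were low in both lines, with exceptions. KRT5 was at 5.05 and 13 CPM in LNCaP and 3.79 and 3.81 CPM in VCaP, and KRT14 at 3.49 and 6.07 CPM and 5.57 and 8.55 CPM, with no call for either (adjusted p 0.397 and 0.573). DST, dystonin, was higher in VCaP by 2.47. FN1, fibronectin, was at 772 and 889 CPM in LNCaP and 48.3 and 101 CPM in VCaP (log2 -3.47 ± 0.38, adjusted p 4.29e-08). TWIST1, a mesenchymal transcription factor, was at 13.2 and 8.74 CPM and 0.0292 and 0.120 CPM (log2 -7.05). Of 16 mesenchymal genes 2 were higher in VCaP (1 without LNCaP replicate 2), 4 higher in LNCaP and 10 did not pass. Calls made up 37.5% of the mesenchymal genes, against 52.6% of all genes. Among 21 integrins, the receptors for matrix, 10 were higher in VCaP and 4 in LNCaP. The share called was 66.7%, against 52.6% of all genes. The fibronectin receptor chains ITGA5 and ITGB1 were on the LNCaP side, ITGA5 at 51.4 and 44.3 CPM and 5.89 and 5.93 CPM (log2 -3.02) and ITGB1 at 389 and 384 CPM and 219 and 239 CPM (-0.75). ITGA1, ITGA3 and ITGB8 were higher in VCaP, by 3.52, 1.29 and 3.61. The log2 difference without 1 library lay for DST between 1.68 and 2.98 (VCaP replicate 2), FN1 between -4.10 and -3.04 (VCaP replicate 2), TWIST1 between -8.35 and -6.46 (VCaP replicate 2) and ITGB8 between 3.13 and 4.37 (LNCaP replicate 1).

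Neuroendocrine genes had the highest median of the 26 gene lists plotted. Of 18 tested, 14 were higher in VCaP, none was higher in LNCaP and 4 did not pass, with a median of 5.21. Calls thus made up 77.8% of this list, against 52.6% of all genes. The number higher in LNCaP was also 0 at an unadjusted p under 0.05 in edgeR and by DESeq2. Beyond the chromogranins and INSM1, SYP, synaptophysin of small vesicles, was at 2.87 and 2.60 CPM in LNCaP and 70.9 and 87.0 CPM in VCaP (log2 4.85 ± 0.34, adjusted p 1.54e-11). SCG3, a granin that sorts cargo into granules, was at 0.232 and 0.530 CPM and 49.7 and 56.7 CPM (log2 7.12), and SCG2 at 0.0634 and 0.221 CPM and 12.7 and 7.90 CPM (6.14). PEG10, an imprinted retrotransposon-derived gene, was at 2.94 and 6.36 CPM and 452 and 1622 CPM (log2 7.80). SRRM4, a splicing factor of neurons, was at 0.148 and 0.0883 CPM and 8.17 and 6.22 CPM (log2 5.87), and UCHL1, a neuronal ubiquitin hydrolase, at 0.401 and 0.265 CPM and 13.6 and 24.7 CPM (5.82). ENO2, neuron-specific enolase, was at 13.7 and 19 CPM and 19.8 and 21.5 CPM, and DLL3, a Notch ligand, at 7.08 and 6.56 CPM and 8.37 and 5.59 CPM, with adjusted p of 0.549 and 0.968. NEUROD1 had no read in any of the 4 libraries. The luminal keratins and HOXB13 were read in the same VCaP libraries at the levels given above. Without 1 library the log2 difference lay for SCG3 between 6.64 and 7.81 (LNCaP replicate 2), SCG2 between 5.51 and 7.24 (LNCaP replicate 2) and PEG10 between 6.6 and 8.46 (VCaP replicate 2).

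**Figure D3:**
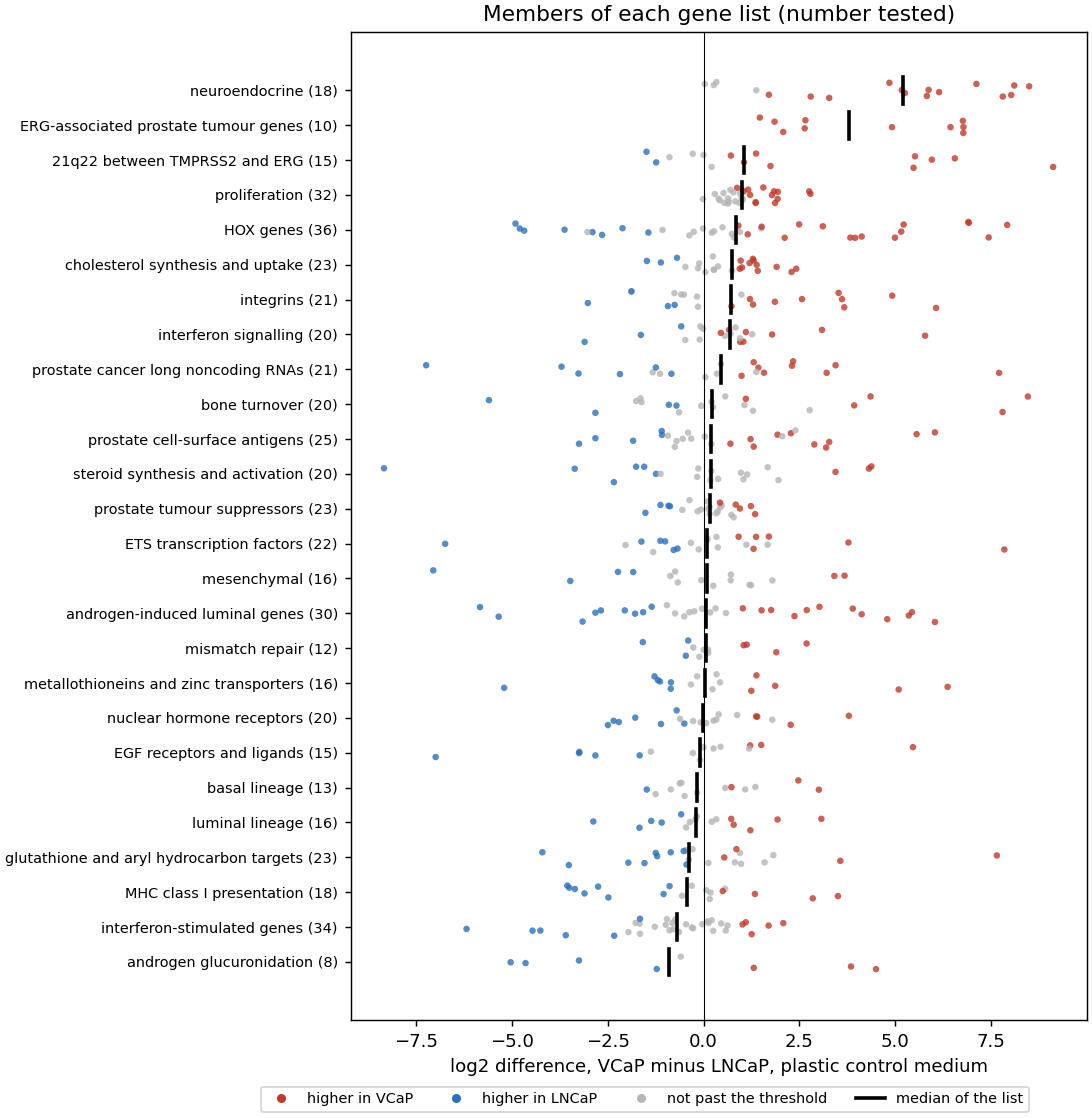
Log2 difference, VCaP minus LNCaP on plastic, for each tested member of 26 gene lists; points are genes, red for higher in VCaP, blue for higher in LNCaP and grey for not past the threshold, and black bars are list medians. The medians run from -0.91 for androgen glucuronidation to 5.21 for neuroendocrine genes, and most lists hold genes on both sides of 0.

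Bone turnover genes were called in both directions, and the secreted signals BMP7 and GREM1 had wide gaps towards VCaP. BMP7, a bone morphogenetic protein, was at 0.275 and 0.441 CPM in LNCaP and 70.0 and 90.7 CPM in VCaP (log2 7.80 ± 0.41, adjusted p 1.26e-13), and GREM1, an antagonist of such proteins, at 0.0845 and 0.110 CPM and 32.0 and 39.5 CPM. Both the ligand and the antagonist were thus VCaP-high. ALPL, tissue-nonspecific alkaline phosphatase, was at 0.359 and 0.0883 CPM and 2.86 and 4.12 CPM (log2 3.93). TNFRSF11B, osteoprotegerin, had 20 reads over the LNCaP libraries and 0 over those of VCaP, at least 5.45-fold higher in LNCaP when the 0 is set to 3 reads over the group. RUNX2, the osteoblast transcription factor, was at 8.85 and 11 CPM and 3.27 and 7.28 CPM (log2 -0.91, adjusted p 0.0128), and its call was lost without VCaP replicate 1 (log2 -0.44, adjusted p 0.25) or LNCaP replicate 2, while without VCaP replicate 2 the log2 difference was -1.60. Of 20 tested genes on the list, 5 were higher in VCaP, 4 higher in LNCaP and 11 did not pass. This made 45% called, against 52.6% of all genes. Without VCaP replicate 1 the number higher in LNCaP was 1. The osteoblast products BGLAP and IBSP were at or near 0 in both lines. Leaving out 1 library placed the log2 difference of ALPL between 3.27 and 5.23 (LNCaP replicate 1).

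Genes of interferon signalling and antigen presentation were called in both directions. The calls covered 55% of signalling genes, 32.4% of interferon-stimulated genes and 66.7% of class I presentation genes, against 52.6% of all genes. JAK1, a kinase that all interferon receptors use, was at 4.23 and 4.59 CPM in LNCaP, a line known for defective JAK1, and at 34.6 and 40.5 CPM in VCaP (log2 3.09 ± 0.30, adjusted p 5.47e-09). JAK2 was the reverse, at 20.9 and 20.5 CPM and 2.33 and 2.48 CPM (log2 -3.10), and STAT3 was higher in LNCaP (log2 -1.63). The receptor chains IFNAR1, IFNGR2 and IFNLR1 were higher in VCaP, by 1.04, 1.79 and 5.78. Of 20 signalling genes 8 were higher in VCaP, 3 higher in LNCaP and 9 did not pass, whereas of 34 interferon-stimulated genes 5 were higher in VCaP, 6 higher in LNCaP and 23 did not pass (median -0.69, and 2 higher in VCaP without LNCaP replicate 1, LNCaP replicate 2 or VCaP replicate 2). The 6 became 10 with no filter on low counts or with the compared libraries alone and 14 with the 8 plastic libraries alone. On ACP with androgen this list had 17 genes higher in VCaP and 4 higher in LNCaP (median 1.35), against 3 and 8 in control medium and 5 and 7 in stripped serum. IFITM3, IFITM2 and ISG20 were LNCaP-high (log2 -2.33, -4.46 and -4.25), examples from 1 side of a list with 5 genes called higher in VCaP. The IFITM genes resemble each other and may share reads. Of 18 class I presentation genes, 4 were higher in VCaP, 8 higher in LNCaP and 6 did not pass. The class I genes named next were higher in LNCaP. HLA-B was at 115.7 and 129.5 CPM in LNCaP and 11 and 25.4 CPM in VCaP (log2 -2.75 ± 0.44, adjusted p 1.16e-05), and HLA-C at 304 and 316 CPM and 25 and 47.1 CPM. HLA-E and HLA-F followed with -3.5 and -3.55. Reads of these variable genes were mapped to 1 reference sequence, so alleles far from it may be undercounted. B2M, their light chain, was at 236 and 251 CPM and 258 and 286 CPM and did not pass (adjusted p 0.708). NLRC5, the transactivator of class I genes, was at 8.22 and 7.95 CPM and 0.817 and 2.05 CPM (log2 -2.48). ERAP2, a peptide trimmer, and PSMB8, an immunoproteasome subunit, were higher in VCaP, by 3.51 and 2.85. The log2 difference without 1 library lay for ISG20 between -5.47 and -3.63 (VCaP replicate 2), HLA-B between -3.48 and -2.27 (VCaP replicate 2) and NLRC5 between -3.30 and -1.98 (VCaP replicate 2).

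The proliferation genes that passed were all higher in VCaP. Of 32 tested, 14 were higher in VCaP, none was higher in LNCaP and 18 did not pass, with a median of 1.00. The share called, 43.8%, was under the 52.6% of all genes, of which 27.0% were higher in VCaP and 25.7% higher in LNCaP. TOP2A, a topoisomerase of dividing cells, was at 80.1 and 106 CPM in LNCaP and 520.1 and 768 CPM in VCaP (log2 2.79 ± 0.56, adjusted p 0.000176), KIF20A, a mitotic kinesin, at 26.8 and 29.0 CPM and 162 and 214 CPM (log2 2.75), and MCM4, of the replicative helicase, at 112 and 148 CPM and 267 and 499 CPM (1.56, and 1.04 without VCaP replicate 2). VCaP replicate 2 was the higher of the VCaP pair for each of these. MKI67 was at 65.7 and 83.7 CPM and 169 and 404 CPM (log2 1.94, adjusted p 0.0136), and its call was lost without VCaP replicate 2 (log2 1.18, adjusted p 0.191) or without either LNCaP library. The number higher in VCaP fell to 6 without LNCaP replicate 1 or VCaP replicate 2 and to 8 without LNCaP replicate 2, and reached 22 with no filter on low counts. No member was higher in LNCaP at an unadjusted p under 0.05 (0 genes), by edgeR, or under any alternative run, DESeq2 included. On ACP the list had 12 genes higher in VCaP and 0 in LNCaP in control medium, 2 and 6 in stripped serum (median -0.47), and 30 and 0 with androgen (median 2.45), so its direction on plastic was not that in stripped serum. Growth rate was not measured.

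HOX genes of the posterior A cluster marked VCaP. HOXA13 was at 0.232 and 0.530 CPM in LNCaP and 100.0 and 85.6 CPM in VCaP (log2 7.92 ± 0.36, adjusted p 1.20e-14), HOXA9 at 0.0634 and 0.177 CPM and 23.3 and 19.4 CPM (log2 7.44), and HOXA10 at 5.24 and 4.92 CPM and 84.1 and 60.4 CPM (3.83). HOTTIP, the noncoding RNA transcribed next to HOXA13, was at 0.169 and 0.309 CPM and 69.6 and 31.9 CPM (log2 7.71), and where counting ignored strand the reads of overlapping neighbours cannot be told apart. HOXB9 and HOXC12 were higher in LNCaP (log2 -4.90 and -4.79). In all, 16 of 36 HOX genes were higher in VCaP and 8 higher in LNCaP. The share called was 66.7% here and 71.4% among the noncoding RNAs given next, against 52.6% of all genes. Of 21 prostate cancer noncoding RNAs, 9 and 6 passed in these directions, and without LNCaP replicate 1 or VCaP replicate 1 the number higher in VCaP was 3 or 4. SCHLAP1, a marker of aggressive prostate cancer, was at 20.9 and 20.5 CPM in LNCaP and 2.42 and 1.90 CPM in VCaP (log2 -3.26 ± 0.34, adjusted p 2.17e-08). PCAT1 was also LNCaP-high (-2.18), and DRAIC VCaP-high (2.34). Without 1 library the log2 difference lay for HOXA13 between 7.44 and 8.61 (LNCaP replicate 2), HOXA9 between 6.88 and 8.30 (LNCaP replicate 2) and HOTTIP between 7.04 and 8.19 (VCaP replicate 1).

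Surface proteins used as targets in prostate cancer gave 10 of 25 higher in VCaP and 5 higher in LNCaP. The share called was 60.0%, against 52.6% of all genes. FOLH1, which encodes PSMA, was at 1942 and 1922 CPM in LNCaP and 615 and 1200.2 CPM in VCaP (log2 -1.09, adjusted p 0.0193). This call did not hold without VCaP replicate 1 (log2 -0.69, adjusted p 0.224) or either LNCaP library, while without VCaP replicate 2 the difference was -1.65. STEAP1 was at 339.6 and 347 CPM and 233 and 316 CPM and did not pass (adjusted p 0.386). CD276, the checkpoint ligand B7-H3, was at 141 and 137 CPM and 303 and 385 CPM (log2 1.31). The receptor kinases ERBB2 and ERBB3 were LNCaP-high: ERBB2 at 318 and 287 CPM and 45.3 and 40.4 CPM (log2 -2.82 ± 0.26, adjusted p 2.30e-09), and ERBB3 at 278 and 271 CPM and 17.7 and 40.0 CPM (log2 -3.25). EGF, a ligand of this family, was on the same side (-3.24), while MET, the receptor of hepatocyte growth factor, was higher in VCaP (2.89). Leaving out 1 library placed the log2 difference of ERBB3 between -3.95 and -2.78 (VCaP replicate 2).

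Among metabolic lists, 11 of 23 cholesterol genes were higher in VCaP and 3 higher in LNCaP. The share called was 60.9%, against 52.6% of all genes. SQLE, squalene epoxidase, was at 67.1 and 64.1 CPM in LNCaP and 292 and 409 CPM in VCaP (log2 2.42 ± 0.22, adjusted p 1.60e-09), HMGCS1 at 89.6 and 91.7 CPM and 371 and 519 CPM (2.29), and LSS, lanosterol synthase, at 140.1 and 128 CPM and 487 and 519 CPM (1.91). Of 23 genes of glutathione metabolism and the aryl hydrocarbon response, 4 were higher in VCaP and 9 higher in LNCaP. Their share called, 56.5%, was near that of all genes, 52.6%. NQO1, a quinone reductase, was at 130.3 and 126 CPM in LNCaP and 6.33 and 7.57 CPM in VCaP (log2 -4.20 ± 0.24, adjusted p 5.78e-13), and HMOX1, heme oxygenase, at 11.8 and 11.1 CPM and 0.758 and 1.23 CPM (-3.51). GPX3, a secreted glutathione peroxidase, was the reverse, at 0.296 and 0.618 CPM and 48.2 and 136 CPM (log2 7.65). GSTP1, silenced in most prostate cancers, was at 3.02 and 2.32 CPM and 2.54 and 3.28 CPM and did not pass (adjusted p 0.853). Of 16 metallothioneins and zinc transporters, 5 were higher in VCaP and 6 in LNCaP (3 without VCaP replicate 1), with MT1E at 0.232 and 1.02 CPM and 43.9 and 58.8 CPM and MT1G at 10.2 and 7.35 CPM and 0.146 and 0.313 CPM in the 2 lines, although these short copies may share reads. Among the metallothioneins and zinc transporters 68.8% were called, against 52.6% of all genes. The log2 difference without 1 library lay for GPX3 between 6.71 and 8.26 (VCaP replicate 2).

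By chromosome, 16 and 21 lay apart from the rest. Of 759 tested genes assigned to chromosome 16, 55.9% were higher in LNCaP and 9.09% higher in VCaP, with a median log2 difference of -0.83. Of 178 genes on chromosome 21, 52.8% were higher in VCaP and 13.5% higher in LNCaP, with a median of 0.76. Medians of the other chromosomes lay between -0.26 (X) and 0.31 (chromosome 20). The same medians on ACP were -0.82, -0.94 and -0.93 for chromosome 16 and 0.75, 0.75 and 0.79 for chromosome 21, in control medium, stripped serum and androgen. Among 11199 protein-coding genes of at least 5 CPM in one line, ordered by RefSeq, the longest run of neighbours that were all called and at least 2-fold apart in 1 direction held 29 genes on chromosome 16, from MTHFSD to SPATA2L. Its members, among them 3 genes named here after their values were seen, the mevalonate enzyme gene MVD, the replication licensing gene CDT1 and the channel gene PIEZO1, had log2 differences from -4.43 to -1.11, and 27 of the 29 were called in that direction on ACP in control medium. Chromosome 16 held 7 runs of at least 5 genes higher in LNCaP, with 63 genes in all, and 0 runs higher in VCaP. Next in length were runs of 15 genes on chromosome 11 (NUDT22 to SF1, higher in VCaP, median 1.89) and of 14 on chromosome 1 (ADCK3 to RNF187, higher in LNCaP, median -2.41). On chromosome 21, 9 of the 15 tested genes between ERG and TMPRSS2 were higher in VCaP and 2 higher in LNCaP, with a median of 1.06. This lean was not particular to the interval, since 52.8% of the whole chromosome was higher in VCaP, against 27.0% of all genes. FAM3B was at 0.169 and 0.397 CPM in LNCaP and 24.7 and 29.0 CPM in VCaP (log2 6.55), BACE2 at 1.39 and 1.26 CPM and 59.4 and 59.2 CPM (5.48), and HMGN1 at 252 and 226 CPM and 557 and 437 CPM (1.06). PCP4 had 690 reads in VCaP and 1 in LNCaP, a ratio of 843 (95% interval 151 to 33361). DNA copy number was not measured. Without 1 library the log2 difference lay for FAM3B between 6.06 and 7.27 (LNCaP replicate 2).

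**Figure D4:**
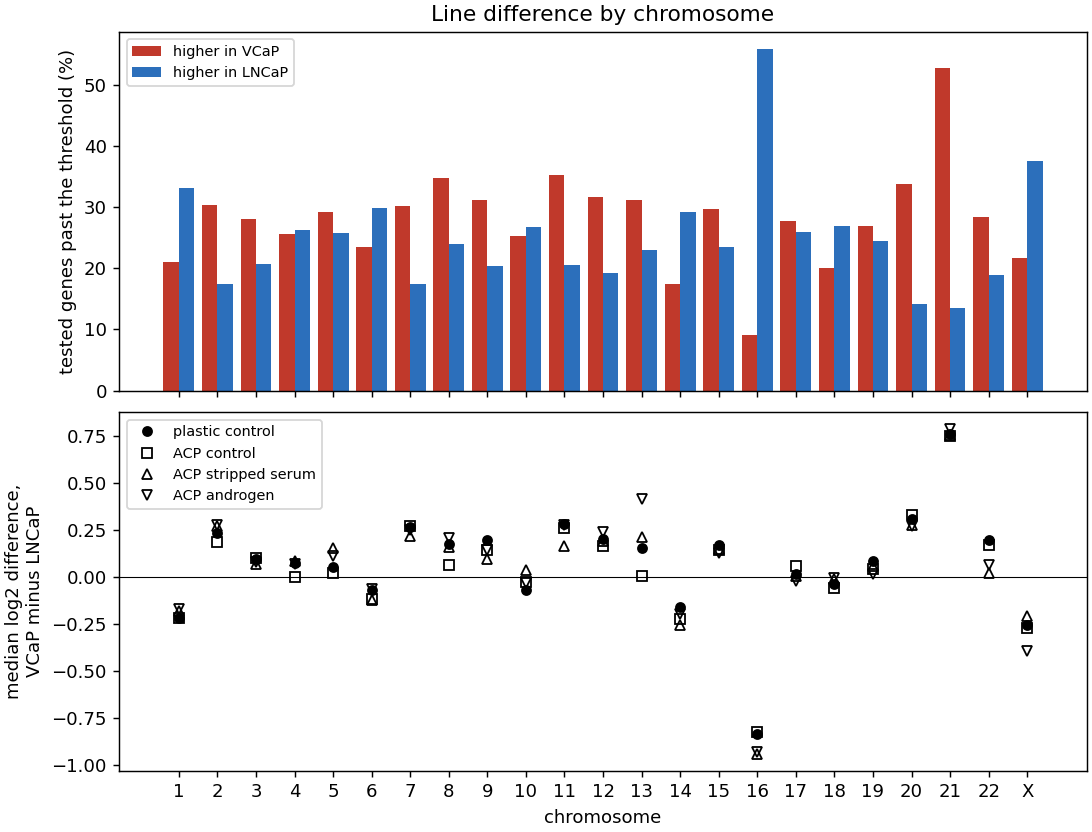
Top, share of tested genes per chromosome (x axis) that were higher in VCaP (red) or in LNCaP (blue) on plastic, in percent; bottom, median log2 difference, VCaP minus LNCaP, on plastic (filled circles) and in the 3 ACP media (open symbols). Chromosome 16 stands apart towards LNCaP (median -0.83) and chromosome 21 towards VCaP (median 0.76), in all 4 comparisons.

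The line difference was measured again in libraries on ACP. There, 9237 genes (53.3%) differed in control medium, 9712 (56.1%) in stripped serum and 9707 (56.0%) with androgen. Of the 4670 genes higher in VCaP on plastic, 3933 (84.2%) were called higher on ACP in control medium, and of the 4450 higher in LNCaP, 3857 (86.7%) were. None was called in the opposite direction there. In stripped serum 31 of the VCaP-high and 27 of the LNCaP-high genes were called in the opposite direction, and with androgen 50 and 38. In all, 5717 genes (62.7% of those called on plastic) were called in the same direction in all 4 comparisons. The log2 difference of KLK3 was -5.34 on plastic and -4.85, -4.42 and -0.67 on ACP in control medium, stripped serum and androgen, the last with an adjusted p of 0.276, and the change between media was not tested. For KLK2 the values were 5.35, 5.49, 6.08 and 5.20. ERG gave 7.84, 9.18, 9.68 and 10.18, and the neuroendocrine list had 12 of 18 genes called higher in VCaP on ACP in control medium (median 5.15), 16 in stripped serum and 14 with androgen, where 1 was higher in LNCaP.

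A direct test of whether the gap differed between plastic and ACP in control medium called 4 genes (0.0231%), with 645 of 17323 genes at an unadjusted p under 0.05. That is fewer than this threshold would pass if no gene differed and p-values were evenly spread. VIM, vimentin, was at 25.9 and 24.5 CPM in LNCaP and 12 and 15.7 CPM in VCaP on plastic but at 9.37 and 23.6 CPM and 0.470 and 0.346 CPM on ACP, so the line difference was -0.86 on plastic and -5.33 on ACP (difference 4.46 ± 0.71, adjusted p 0.0162). CPS1, a urea-cycle enzyme, had line differences of -2.58 and -6.0 (difference 3.42 ± 0.57, adjusted p 0.0162), MSN, moesin, of -4.20 and -6.49 (2.29 ± 0.38, 0.0162), and CYP1B1, a dioxin-induced cytochrome, of 3.57 and 6.90 (-3.33 ± 0.58, 0.0263). For VIM, MSN and CPS1 the VCaP level was higher on plastic than on ACP. No gene was called without VCaP ACP replicate 1, VCaP ACP replicate 2, LNCaP plastic replicate 1 or LNCaP plastic replicate 2, and 20 were called without VCaP plastic replicate 2. Plastic and ACP control libraries also differ in surface and labelled culture time, and the liver transcript FGG was read on plastic but not on ACP in control medium, so surface and culture time cannot be told apart, and the part of such transcripts was not tested.

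**Figure D5:**
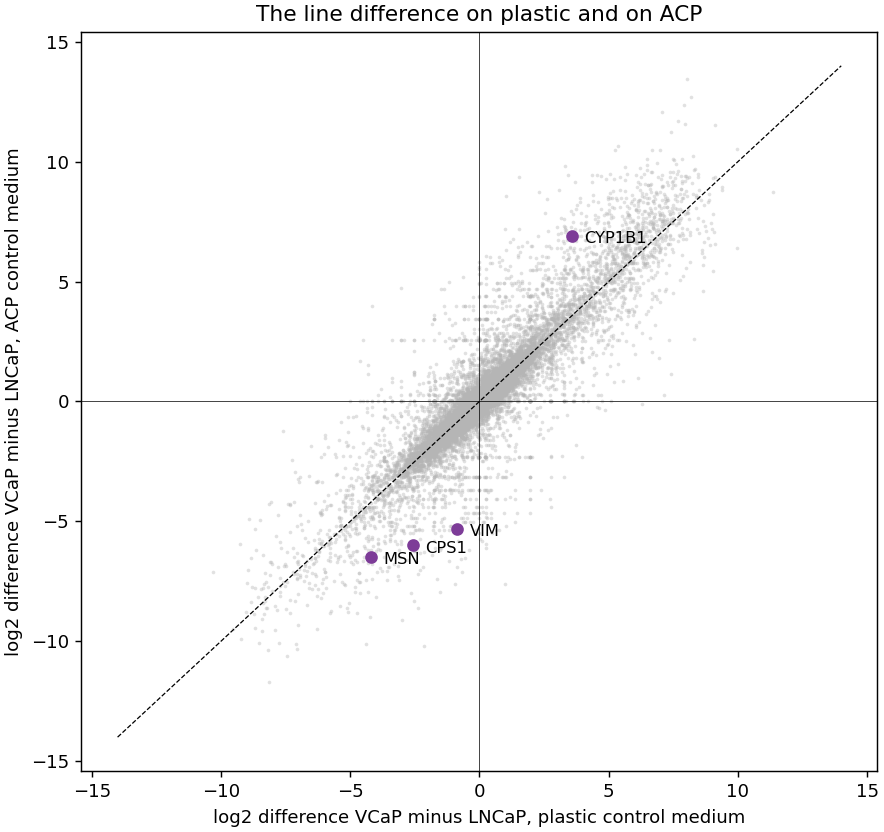
Log2 difference, VCaP minus LNCaP, on plastic (x axis) and on ACP (y axis), both in control medium, for each tested gene; the dashed line marks equal differences and purple points are the 4 genes for which the difference itself passed the test. VIM lies at -0.86 on plastic and -5.33 on ACP, and most genes lie near the dashed line.

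The replicates of each line were also compared over genes that respond to androgen. In VCaP on ACP, androgen against stripped serum gave 2184 higher genes (12.6%) and 2361 lower genes (13.6%). Among the genes changed at least 2-fold by androgen with a mean of at least 1 CPM over the libraries of the line, 967 were higher with androgen, and VCaP plastic replicate 1 was the higher for 28.3% of them (median log2 difference, replicate 1 minus 2, of -0.28). Of 1282 genes lower with androgen it was the higher for 54.2%, and of all 13236 genes at that level for 47.1%. In LNCaP the figures were 81.6% of 256 genes and 19.6% of 204 genes, with medians of 0.13 and -0.12, against 56.1% of all 12553 genes, with a median of 0.02. On the androgen-induced list, STEAP4, TRPM8 and HPGD were higher in VCaP replicate 2, while ACPP and NDRG1 were higher in VCaP replicate 1. How far the replicate difference bears on that list was not tested.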

How the data were processed

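Poly(A) RNA of cultured cells was sequenced, and the authors deposited whole-number read counts per gene, per the file headers. STAR, HTSeq and the build hg19 are named in the submitters' processing notes, while versions, annotation and strand setting are not given in the labels or headers. Groups came from the labels. Counts of 26336 genes were scaled by TMM and fitted across 34 libraries in 17 groups with edgeR 4.0.16 (R 4.3.3, quasi-likelihood test, filterByExpr with a minimum count of 10), so all groups share 1 estimate of spread. A call is a Benjamini-Hochberg adjusted p below 0.05 over the 17323 genes tested. Standard errors were derived from the test statistic. Data were simulated at the depths of the libraries, with the plastic means of both lines set equal except for the changed genes. There, 51.0% of 100 genes changed by a log2 of 1 and 93.0% of 100 changed by 2 were recovered, among 17160 genes. Named genes were the 14 largest called differences in each direction with at least 20 CPM in the higher line and no overlap of libraries, plus members of the gene lists. X-inactivation, Y-linked and some other genes and 1 gene list are not reported here, and predicted and small RNA symbols too. The members and lists were chosen with earlier results of these data known. Intervals on read counts are exact and 95% wide and cover counting error only. Alternatives were RLE size factors, no filter, a replicate block, fewer libraries in the fit, each library left out and DESeq2 1.42.0. RefSeq gene order and promoters (GRCh38.p14) were matched by symbol and used for names, neighbours and sequences only.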

Additional observations from a re-analysis of the deposited data

Results flagged for a closer look

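The line difference itself differed between plastic and ACP, both in control medium, for 4 genes by edgeR's interaction test with Benjamini-Hochberg adjustment. VIM had a difference of 4.46 on the log2 scale (plastic minus ACP), CPS1 of 3.42, MSN of 2.29 and CYP1B1 of -3.33. The VCaP levels on ACP were 0.47 and 0.35 CPM for VIM and 0.09 and 0.22 CPM for CPS1, and those of LNCaP on ACP were 0.07 and 0.18 CPM for CYP1B1. In the RWPE line on plastic, VIM was at 233 and 194 CPM and MSN at 209 and 219 CPM, and the part of such high levels in other libraries was not tested. The count of such genes depends on single libraries, as given in the next part.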

How the results depend on the processing

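The number of genes differing between the lines on plastic lay between 8778 and 10196 under the other scalings, filters and fits at the same threshold, and was 6353 at an absolute log2 difference of at least 1. It was 7264 to 7903 when 1 library was left out, with 0 calls reversed in any of these. With a replicate block it was 9388. The labels give no pairing of same-numbered libraries, whose deviations had a correlation of 0.00. That value cannot show whether they were handled together, since a small shared effect could be hidden by the wide VCaP replicate difference. The interaction count of 4 became 17 with no filter on low counts, 8 with DESeq2, 0 in the fit of the compared libraries alone and 0 to 20 without 1 library. The cause was not tested. In simulated data of this design 51.0% of 100 genes changed 2-fold were called. Far fewer genes were changed there than were called between the lines, so that share does not carry over to these data.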

Other observations

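Some transcripts typical of other tissues were higher in VCaP on plastic, but their lists held calls in both directions. Of 14 liver genes tested, 5 were higher in VCaP and 1 in LNCaP (42.9% called), and of 8 fibroblast genes 2 and 2 (50%). The 13 keratinocyte genes gave 1 and 3 (30.8%), and the 7 leukocyte genes tested 2 and 1 (42.9%). Each of these shares lay under the 52.6% of all genes. ALB, the serum albumin of liver, was at 8.11 and 5.23 CPM in LNCaP and 54.3 and 130.2 CPM in VCaP. LUM, a proteoglycan of fibroblasts, was at 0.127 and 0.154 CPM and 7.26 and 33.8 CPM, and DSC3, a desmosomal cadherin of stratified epithelium, at 0.613 and 0.618 CPM and 36.2 and 74.0 CPM. VCaP replicate 2 was the higher of the VCaP pair for each of these.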
